A study of Caenorhabditis elegans with 2 samples.

Results

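The regions described here are places in the genome of Caenorhabditis elegans where chromatin immunoprecipitation and sequencing (ChIP-seq) of the transcription factor FKH-2 gave a high score in both biological replicates. In ChIP-seq, DNA bound by a protein is pulled down with an antibody and sequenced, and a peak caller lists and scores the regions where reads pile up. Both replicates were whole, mixed-sex larvae of the L3 stage from strain OP185, genotype unc-119(ed3) III; wgIs185, in which the transgene carries fkh-2 tagged with eGFP. Both thus carry the unc-119 mutation and the tagged copy, the series has no second condition, and the control library was not analysed here. The promoter that drives the tagged copy is not given in the sources used here, nor is the cell type in which it was expressed. The antibody label reads fkh-2, so it does not say whether eGFP or FKH-2 itself was bound. Because whole animals were used, binding in many cells and strong binding in few cells cannot be told apart.

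The members were chosen by their deposited scores. Each ce11 replicate list was ranked by score, the 3000 highest regions of each were kept, and a replicate 1 region became a member if it overlapped a replicate 2 region by at least 1 bp. Of the 3000 replicate 1 regions, 334 (11.1%) were members and 2666 had no such overlap. The whole list of replicate 1 held 30000 regions of 290 bp, and that of replicate 2 held 24744 regions of 250 bp. Both were deposited as peaks and background, so a listed region need not be a peak. The lowest deposited −log10 q-value was 0.449 in the list of replicate 1 and 1.30 in that of replicate 2. The 334 members met 332 replicate 2 regions, so some members share one. Scores and ranks of the members are therefore a description and carry no test.

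Forkhead proteins are transcription factors named for their winged-helix fold, which reads a short DNA core. Here ATAAACA and its variant GTAAACA are called the strict forkhead core. FKH-2 is one of the C. elegans forkhead proteins and is known for its part in shaping the cilia of AWB olfactory neurons. Binding sites of such factors usually lie in promoters and other open, noncoding DNA rather than in coding sequence. GAGA repeats, runs of alternating G and A or of T and C on the other strand, are common in C. elegans promoters and introns, and ChIP-seq signal of many different factors is found at them.

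GAGA repeats and strict forkhead cores were among the motifs that occurred more often at members, as described below. Both can be read in the central sequences of members. Going down the members by the worse of their replicate ranks, the first 4 with a strict forkhead core and the first 4 with the repeat GAGAGA are shown, where the stretch is free of UTR and coding sequence. A sequence with both motifs counts for both, so the 6 shown do not tell how often the motifs occur together. Members that hold the repeat alone and come after the first 4 with it, such as that of lin-9, are not printed. Each line gives the 101 bases around the centre of the replicate 1 region, plus strand, ce11, from the RefSeq genome sequence. Capitals mark the repeat, which reads TCTCTC where it lies on the other strand, and the strict forkhead core on either strand.

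Nearest gene ZK899.6, chrX:9465801-9465901: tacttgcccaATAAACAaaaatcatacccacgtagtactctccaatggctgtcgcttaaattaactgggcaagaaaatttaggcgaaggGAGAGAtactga
fkh-7 intron, chrIV:5593995-5594095: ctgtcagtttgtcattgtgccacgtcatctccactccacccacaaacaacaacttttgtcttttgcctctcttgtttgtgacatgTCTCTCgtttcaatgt
Nearest gene F07H5.13, chrII:8787483-8787583: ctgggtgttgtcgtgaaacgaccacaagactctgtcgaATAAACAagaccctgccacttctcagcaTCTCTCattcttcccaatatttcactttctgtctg
Upstream of C04G6.2, chrII:5092562-5092662: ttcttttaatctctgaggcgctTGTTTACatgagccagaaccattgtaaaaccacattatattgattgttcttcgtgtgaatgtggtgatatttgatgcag
Nearest gene ptc-1, chrII:7887447-7887547: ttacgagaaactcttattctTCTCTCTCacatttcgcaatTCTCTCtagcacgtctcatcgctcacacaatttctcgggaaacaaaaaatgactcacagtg
nhr-19 intron, chrII:9603592-9603692: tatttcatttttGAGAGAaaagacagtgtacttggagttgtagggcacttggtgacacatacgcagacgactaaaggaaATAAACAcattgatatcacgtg

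The sequences near ZK899.6, near F07H5.13 and in nhr-19 hold both motifs. That in fkh-7 and that near ptc-1 hold the repeat without the strict core, and that of C04G6.2 holds the core without the repeat. A motif match is a description of the sequence and does not show that the factor sits there.

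Scores of the members were spread widely in both libraries. In replicate 1 the members had a median score of 12.2 (7.66 to 53.8), and the regions without overlap one of 9.04 (7.66 to 36.3). Their median replicate 1 rank was 486 for members and 1602.5 for the regions without overlap. The replicate 2 regions that they met had a median score of 8.48 (5.72 to 38.4). Across the 334 members the 2 scores had a Spearman rho of 0.401, a description over regions that share their libraries and that the rule itself restricts. The centres of the 2 regions lay a median of 61.5 bp apart, and 43.4% of members had them within 50 bp. Of the 250 strongest replicate 1 regions 49.6% were members, of ranks 251 to 500 18.4%, and of the last 250 ranks 6%.

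**Figure D1:**
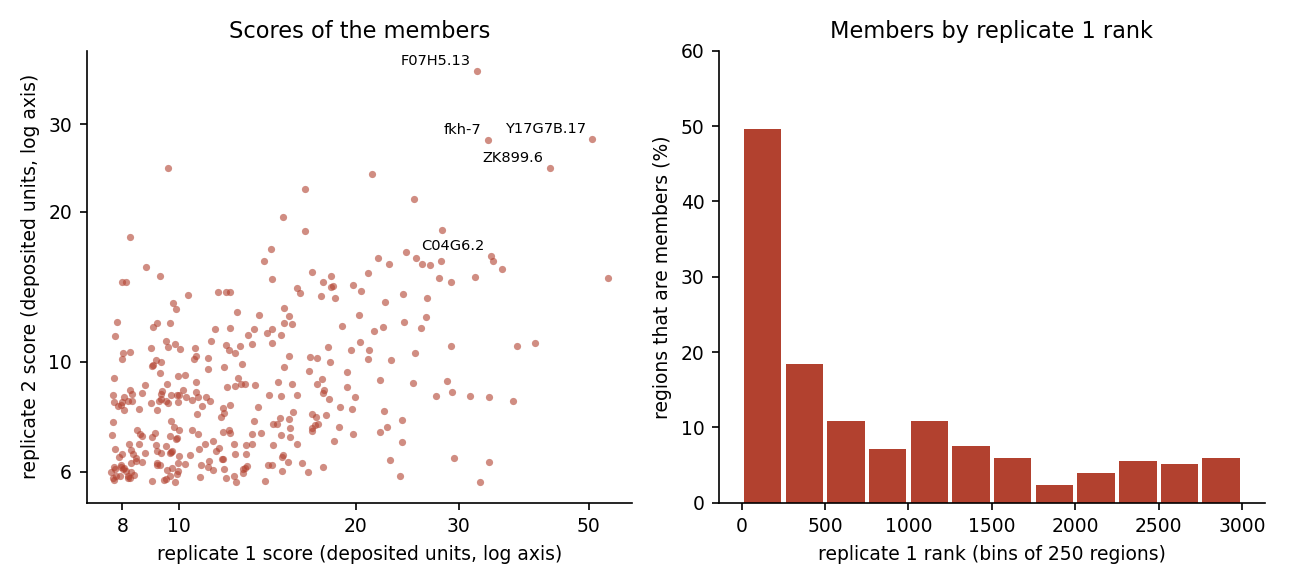
Left: replicate 2 score against replicate 1 score of each of the 334 members, both on log axes in the deposited units, with the first 5 members by worse rank named by their nearest gene. Right: percentage of replicate 1 regions that are members, in bins of 250 ranks, which was 49.6% in the first bin and at most 18.4% in every other.

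Just inside the limit, the last member by replicate 1 rank stood at 2999 with a score of 7.66, and the last by replicate 2 rank at 2986 with 5.72. Just outside, the nearest region without overlap met a replicate 2 region of rank 3053 with a score of 5.69. Of the regions without overlap, 643 (24.1%) overlapped a replicate 2 region further down that list and 2023 met none. Where listed, their median replicate 2 rank was 11832. The strongest region without overlap was rank 7 in replicate 1 (score 36.3), upstream of R05D7.2, and met a replicate 2 region of rank 6839. The authors' own reproducible set, kept by the irreproducible discovery rate (IDR) from these replicates and their pooled list, held 203 peaks. Of these, 148 (72.9%) overlapped a member, and 149 members (44.6%) overlapped an IDR peak. A further 50 regions without overlap met an IDR peak. Since both sets come from the same libraries, neither supports the other.

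The member with the best pair of ranks was an intergenic region at chromosome II, 12102471 to 12102760, with scores of 50.6 in replicate 1 and 27.98 in replicate 2. It ranked 2 in both and lay 2627 bp upstream of the nearest annotated start, that of Y17G7B.17 (WBGene00012468). Neither motif occurred at its centre. The region near ZK899.6 (WBGene00014144, chromosome X, 9465706 to 9465995) followed with 42.9 and 24.5, ranks 3 and 5. The region near F07H5.13 (WBGene00008563, chromosome II, 8787388 to 8787677) was first in replicate 2 with a score of 38.4 and rank 16 in replicate 1 with 32.2. These 3 lay more than 2000 bp from any protein-coding start. The strongest region of replicate 1, intergenic at chromosome X, 11094047 to 11094336, had scores of 53.8 and 14.7 and rank 46 in replicate 2.

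Of the 15 forkhead genes, 1 (6.67%) had a member assigned to it, against 1.21% of all protein-coding genes. A region without overlap was assigned to 3 of the 15 (20%), against 8.6% of all. With 1 gene, the count does not set the family apart, and no test was run. The gene with the member was fkh-7 (WBGene00001439, chromosome IV, 5584684 to 5610378). It encodes another forkhead protein, and 2 members lay inside it. The first, at 5593900 to 5594189, had scores of 33.6 and 27.9 and ranks of 13 and 3. It lay in an intron, 7662 bp upstream of the nearest start, which is an internal start of fkh-7. The second, at 5604384 to 5604673, was also intronic, 1701 bp upstream of a start, and held both the repeat and the strict core. Its scores were 7.98 and 14.4, and its ranks of 2614 and 55 stood far apart. fkh-2 itself (WBGene00001434, on chromosome X) had its nearest member 405 kb away and its nearest region without overlap 34.6 kb away. The nearest member to unc-119 (WBGene00006843, on chromosome III), mutated in the strain, was 143 kb away. A region without overlap at rank 2776 lay in unc-119 itself.

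Of the remaining first 15 members by worse rank, 6 had a protein-coding start within 2000 bp of their centre. The member of C04G6.2 (WBGene00015453, chromosome II, 5092467 to 5092756) lay 619 bp upstream, with scores of 34 and 16.3, and the phospholipase D gene pld-1 was also in reach. That of cdc-48.1 (WBGene00007352), which encodes an AAA ATPase that extracts ubiquitinated proteins, lay 156 bp upstream (chromosome II, 10563418 to 10563707), with 28.1 and 18.4. The member of lin-9 (WBGene00002998), a subunit of the DRM repressor complex, lay 180 bp upstream (chromosome III, 8904166 to 8904455), with 25.4 and 16.2 and a GAGA repeat. unc-32, which encodes a subunit of the vacuolar proton pump, was also in reach. That of Y17G9B.5 (WBGene00021202, chromosome IV, 4749919 to 4750208) lay 176 bp upstream, with 24.3 and 16.6. The ribosomal protein gene rpl-20 and the cytochrome c gene cyc-2.1 were in reach of it. Those of nspc-17 (WBGene00008359, 671 bp upstream) and F55G7.5 (WBGene00195215, 1355 bp downstream), both on chromosome X, had scores of 35.6 and 15.3 and of 32.03 and 14.8.

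The other members among the first 15 were farther from any start. The member near ptc-1 (WBGene00004208), a relative of the Hedgehog receptor Patched, lay 5725 bp upstream (chromosome II, 7887352 to 7887641), with 25.9 and 15.7. The member near fbl-1 (WBGene00001403), which encodes the matrix protein fibulin, lay 2398 bp upstream (chromosome IV, 9538263 to 9538552), with 26.7 and 15.6. The gene mom-1, which acts in Wnt secretion, held an intronic member at chromosome X, 6296412 to 6296701, with 25.1 and 21.2. Those nearest to K02D3.1 (WBGene00010504) and F22H10.2 (WBGene00017726), on chromosome X, had 34.3 and 15.9, and 27.99 and 15.9. Scores of all 15 first members were above 24 in replicate 1 and above 14 in replicate 2.

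Members lay outside protein-coding genes more often than the regions without overlap, and seldom in coding sequence. Features were read at the region centre. Intergenic centres made up 219 of 334 members (65.6%, 95% Wilson interval 60.3 to 70.5) and 1157 of 2666 regions without overlap (43.4%, 41.5 to 45.3). The difference was 22.2 percentage points (Newcombe interval 16.6 to 27.4, two-sided Fisher's exact adjusted p = 5.73e-14). Coding sequence held 16 members (4.79%) and 587 regions without overlap (22.02%), a difference of -17.2 points (-19.7 to -13.99, Fisher's exact adjusted p = 3.36e-16). 3′ UTRs held 2 members (0.599%) and 88 regions without overlap (3.30%, Fisher's exact adjusted p = 0.00484), a difference that was not past the threshold beyond rank 1000 or at a central GC of 40 to 50%. Introns held 82 members (24.6%) and 764 regions without overlap (28.7%), a difference of -4.11 points (-8.76 to 1.06) that did not pass the test (Fisher's exact adjusted p = 0.122). 5′ UTRs held 15 members (4.49%) and 70 regions without overlap (2.63%, Fisher's exact adjusted p = 0.0923). These p-values compare the regions of these lists, in which neighbours are not independent, and measure no spread between animals.

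**Figure D2:**
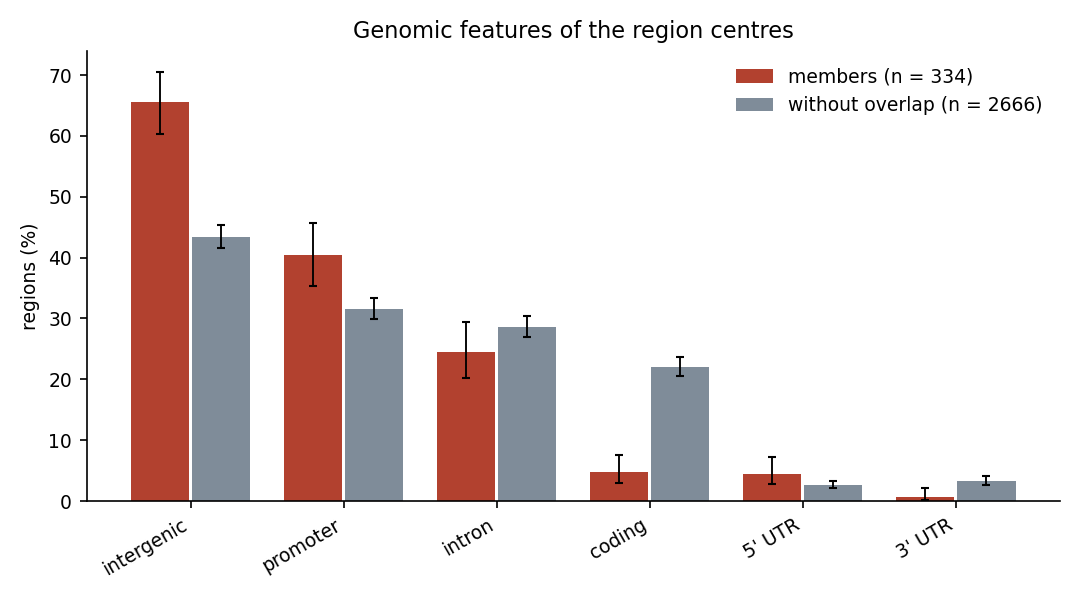
Percentage of region centres in each genomic feature, members (left bar of each pair, n = 334) and regions without overlap (right bar, n = 2666), with 95% Wilson intervals. Promoters overlap the other classes. The intergenic bars stand at 65.6% and 43.4% and the coding bars at 4.79% and 22.02%.

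Both feature differences also passed the test within each of 2 broad ranges of replicate 1 rank. The ranges do not match strength, since 124 of the 215 members in ranks 1 to 1000 were among the first 250. Within replicate 1 ranks 1 to 1000, 72.6% of 215 members and 51.1% of 785 regions without overlap were intergenic. Beyond rank 1000 the shares were 52.9% of the members and 40.2% of 1881 regions without overlap. Coding shares were 3.26% and 15.3% in the first range and 7.56% and 24.8% in the second. The Fisher's exact adjusted p was 7.67e-08 and 0.0140 for intergenic and 6.65e-07 and 2.16e-05 for coding sequence. The 16 coding members included ones in lbp-3, a lipid-binding protein gene, eat-6, which encodes a sodium pump subunit, and the Tousled-like kinase gene tlk-1, named after their values were seen. Their median replicate 1 score was 9.32, against 13.3 for intergenic members.

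Members also lay at promoters more often, on the upstream side of starts. A promoter region had its centre within 500 bp of a protein-coding start, which held for 135 members (40.4%) and 842 regions without overlap (31.6%). The difference was 8.84 points (3.41 to 14.5, Fisher's exact adjusted p = 0.00310). It was not past the threshold within ranks 1 to 1000 (7.08 points) or beyond rank 1000 (7.57 points), nor at a central GC of 40 to 50% (5.54 points). Among regions with a start within 2000 bp, 186 of 246 members (75.6%) and 1023 of 1855 regions without overlap (55.1%) lay upstream of it. Starts of all annotated transcripts counted, so an intronic centre can lie upstream of an internal start. In a test added after the data were seen, this difference was 20.5 points (14.3 to 25.9, Fisher's exact adjusted p = 1.50e-09). The bin from 250 bp upstream to the start held 22.2% of all members and 11.5% of the regions without overlap. The 250 bp downstream held 4.19% of members and 7.16% of the regions without overlap. Of promoter members, 27 of 135 (20%) had starts on both strands within 500 bp, against 85 of 842 (10.1%, added Fisher's exact adjusted p = 0.00323).

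**Figure D3:**
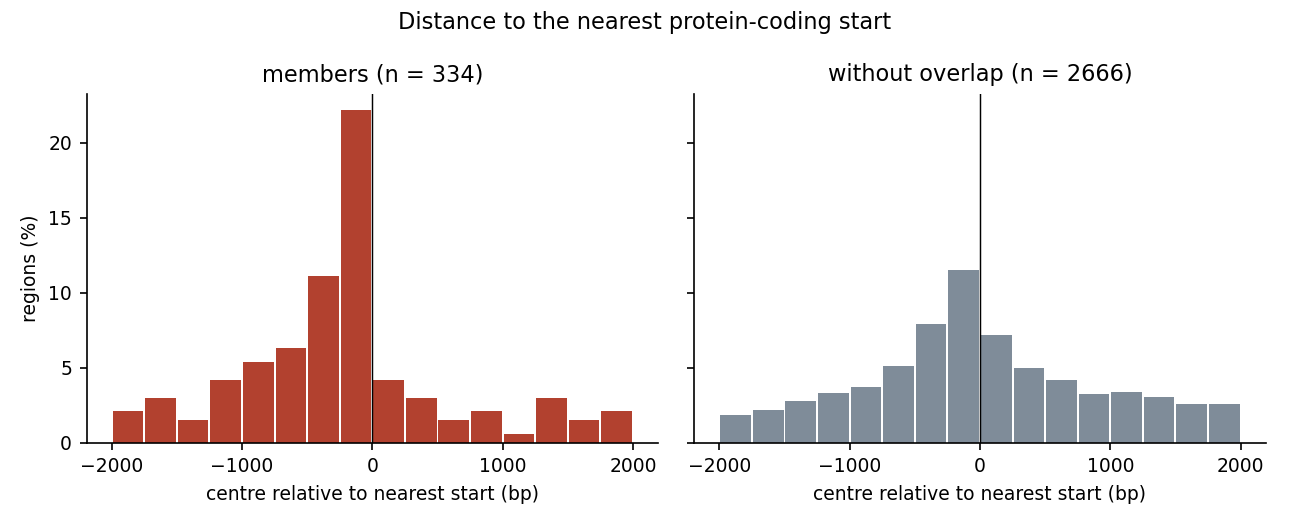
Percentage of all regions in 250 bp bins of distance from the nearest protein-coding start, negative upstream, for members (left) and regions without overlap (right). The tallest bin in both ends at the start and holds 22.2% of members and 11.5% of the regions without overlap.

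Far from starts the sets did not differ past the threshold. No protein-coding start lay within 2000 bp of 88 members (26.3%) and 811 regions without overlap (30.4%), a difference of -4.07 points (-8.85 to 1.19, added Fisher's exact adjusted p = 0.143). Chromosome X carried 84 members (25.1%) and 530 regions without overlap (19.9%), 5.27 points (0.647 to 10.4, Fisher's exact adjusted p = 0.184). For the 5 autosomes the Fisher's exact adjusted p ran from 0.336 to 0.63.

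Assigned by the nearest start within 2000 bp, 246 members reached 242 genes, 1.21% of the 19973 protein-coding genes. The regions without overlap reached 1717 genes, 8.6% of all. Of the 242 genes, 45 (18.6%) also had a region without overlap, which is 2.62% of the 1717. A further gene was in reach of 43.5% of the assigned members, so assignment does not say which gene is regulated. zfp-1 (WBGene00006975), which encodes a chromatin protein related to human AF10, was the only gene with 3 assigned members. All 3 were intronic, at chromosome III, 8801776 to 8802065 (scores 15.4 and 7.05), 8801977 to 8802266 (8.97 and 7.05) and 8797219 to 8797508 (9.26 and 6.19). The first and second of them overlap each other and share 1 replicate 2 region.

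The gene lists below were described by counts and not tested, and were chosen with earlier results of these data known. The counts take only the gene nearest to each member. With every gene that has a start within 2000 bp, cytosolic ribosomal proteins rose from 4 to 8 and chaperones from 2 to 8. The respiratory chain list rose from 1 to 5, and other lists changed less or not at all. No share of all genes was computed for this wider count. Heterochronic genes time the cell fates of successive larval stages. Among the protein-coding ones, 5 of 18 (27.8%) had a member and 6 (33.3%) had a region without overlap. For all protein-coding genes these shares were 1.21% and 8.6%. The 18 leave out 5 microRNA genes of the list, lin-4, let-7, mir-48, mir-84 and mir-241. None of these 5 was among the microRNA genes within 200 bp of a member. lin-28 (WBGene00003014), whose RNA-binding protein blocks maturation of the let-7 microRNA, had an intronic member 49 bp upstream of a start, with 14.3 and 16.8, ranks 264 and 18. lin-66 (WBGene00001562), which acts on lin-28, had one 223 bp upstream of its start, with 14.9 and 8.52. The microRNA effector gene ain-1 (WBGene00015547), a relative of GW182, had one 874 bp upstream, with 17.99 and 8.41. lin-14 (WBGene00003003), a transcription factor gene targeted by the lin-4 microRNA, had an intronic one with 13.4 and 7.61. lin-42 (WBGene00018572), related to the clock gene period, had an intronic one with 8.74 and 8.98. All 5 centres held the repeat GAGAGA and none held the strict forkhead core. Over all 334 members, 34.4% held the repeat and 10.2% the strict core, and 46.3% of intronic members held the repeat. In all lists together, 15 of the 38 genes with a member had the repeat at the centre of that member. Whether the 5 differ from other members in either motif was not tested.

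The 101 bases at the centre of 4 of these heterochronic members are shown to make the repeat visible, chosen after their values were seen. Capitals again mark the repeat on either strand.
lin-66, chrIV:13887806-13887906: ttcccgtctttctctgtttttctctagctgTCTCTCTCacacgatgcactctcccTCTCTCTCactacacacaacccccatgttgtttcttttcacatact
ain-1, chrX:16612527-16612627: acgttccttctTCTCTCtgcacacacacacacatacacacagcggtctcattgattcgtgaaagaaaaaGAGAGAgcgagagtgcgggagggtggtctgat
lin-14, chrX:11467390-11467490: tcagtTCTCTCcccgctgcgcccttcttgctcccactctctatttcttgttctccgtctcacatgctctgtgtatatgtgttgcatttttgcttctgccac
lin-42, chrII:1242726-1242826: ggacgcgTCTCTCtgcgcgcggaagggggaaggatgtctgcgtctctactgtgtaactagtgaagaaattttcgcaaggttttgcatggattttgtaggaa
The stretch of lin-66 holds the repeat in 2 separate runs of 8 bases, ain-1 holds it on both strands, and lin-14 and lin-42 hold it once.

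The lists of protein synthesis and turnover had a member at 0 to 7.69% of their genes, against 1.21% of all genes. Of 78 cytosolic ribosomal protein genes, 4 (5.13%) had a member, namely rpl-3 (scores 29.1 and 14.5, 294 bp upstream), rpl-12 (18.2 and 14.8, 24 bp), rps-1 (15.4 and 10.3, 276 bp) and rpl-15 (32.6 and 5.72, 349 bp). The ranks of rpl-15, 15 and 2979, differed more than those of the other 3. Regions without overlap reached 16 of the 78 (20.5%). Of 39 translation factor genes 3 (7.69%) had a member, the elongation factor gene eef-1A.2 (22.4 and 13.2), iff-2, which encodes eIF5A (22.9 and 10.1), and eif-3.G (8.54 and 8.02). Of 33 proteasome genes 1 (3.03%) had a member, the lid gene rpn-3 (17.4 and 13.5). Of 66 heat shock and chaperone genes 2 (3.03%) had one, the Hsp40 gene dnj-13 (21.5 and 11.5) and hsp-3, which encodes the chaperone BiP (16.6 and 6.01). Among 72 core histone genes 1 (1.39%) had one, his-37 (16.8 and 15.1), a share close to that of all genes. Aminoacyl tRNA synthetases (0 of 31, which allows a share of up to 9.68%) and splicing factors (0 of 54, up to 5.56%) had none. Here and below, the share that a count of 0 allows is 3 divided by the number of genes. It is an approximate 95% upper limit and no hard maximum. Regions without overlap reached 12 of 39 translation factor genes (30.8%), 4 of 33 proteasome genes (12.1%) and 11 of 66 chaperone genes (16.7%). They reached 2 of 72 core histone genes (2.78%).

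Signalling and metabolic lists were hit in small numbers. In the insulin pathway, which keeps the forkhead factor DAF-16 out of the nucleus, 3 of 16 genes (18.8%) had a member. They were the kinase genes akt-2 (12.2 and 7.30) and pdk-1 (8.06 and 8.49) and the 14-3-3 gene ftt-2 (17.6 and 6.14), all on chromosome X and all upstream of their starts. In the TGF-beta pathway 2 of 20 had one, sma-9, related to Schnurri (11.2 and 9.68), and the Smad gene daf-14 (10.1 and 8.77), both intronic with a GAGA repeat. Glycolysis and trehalose genes had 3 of 30 (10%). These were the trehalase genes tre-2 (16.8 and 7.24) and tre-1 (7.74 and 9.28) and the phosphoglycerate mutase gene ipgm-1 (13.3 and 6.84). Nuclear hormone receptors, a large family in nematodes, had 3 of 272 (1.10%), close to the 1.21% of all genes. They were nhr-19 (22.8 and 15.7), nhr-3 (9.87 and 12.7) and nhr-66 (7.74 and 8.31). Of 91 homeobox genes, 2 (2.20%) had members, ceh-38 (8.22 and 17.8) and ceh-5 (12.8 and 5.97). Single members belonged to the Dishevelled gene mig-5 in the Wnt list (9.28 and 9.48), which is 1 of 31 (3.23%), and the ATP synthase gene atp-1 in the respiratory chain list (12.01 and 5.83), 1 of 48 (2.08%). Regions without overlap reached 5 of 16 insulin pathway genes (31.25%) and 8 of 20 TGF-beta genes (40%). They reached 5 of 30 glycolysis and trehalose genes (16.7%) and 22 of 272 nuclear hormone receptor genes (8.09%), against 8.6% of all genes.

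Lists of neuronal and other tissue genes held 0 to 2 genes with a member each, which is too few to place them below the 1.21% of all genes. Cilium and intraflagellar transport genes had 0 of 67, which allows a share of up to 4.48%, while 5 (7.46%) had a region without overlap. Synaptic and pan-neuronal genes had 0 of 38 (up to 7.89%), while 11 (28.9%) had a region without overlap. Neuropeptide genes had none (up to 2.88%), and sensory signalling genes had 1 of 71 (1.41%), the guanylyl cyclase gene gcy-33 of the BAG gas-sensing neurons (10.7 and 8.49). The member of gcy-33 overlaps a tRNA gene. The muscle list had 2 of 52 (3.85%), the troponin T genes tnt-2 (12.4 and 10.4) and mup-2 (12.5 and 6.53). Insulin-like peptides had 2 of 39 (5.13%), ins-39 (16.4 and 18.3) and ins-13 (40.5 and 10.9), and the second of these members overlaps the spliced-leader gene sls-2.2. Cuticle collagens, which the hypodermis secretes, had 0 of 175 (up to 1.71%). Pharynx, intestine, hypodermis, germline and glia lists had 0 of 26, 34, 33, 45 and 18. By nearest gene, 15 of the 34 lists had no gene with a member, and 1 of them, intestine, had none with a region without overlap either. In 1 of the 15, vacuolar ATPase, 1 gene had a start within 2000 bp of a member. In each of these 15 the count of 0 allows a share above 1.21%.

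Noncoding genes lay beside members more often than beside the regions without overlap. A noncoding gene of any class lay within 200 bp of 105 members (31.4%) and 459 regions without overlap (17.2%). This gave 14.2 points (9.25 to 19.6, added Fisher's exact adjusted p = 7.63e-09). Unclassified noncoding RNA genes, transcripts with no assigned function, made up most of these neighbours. They lay beside 79 members (23.7%) and 283 regions without overlap (10.6%), 13.04 points (8.62 to 18.005, Fisher's exact adjusted p = 3.25e-09). Of these, 66 members and 208 regions without overlap touched the gene itself. Among intergenic regions alone the shares were 25.6% and 14.5% (Fisher's exact adjusted p = 0.00129). Among regions with a central GC of 40 to 50% they were 21.7% and 13.6% (Fisher's exact adjusted p = 0.0553). The members of eef-1A.2, dnj-13, rpn-3, rps-1 and lin-14 each overlap such a gene. Those of several tRNA and spliced-leader genes do too, so the classes are not independent.

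Spliced-leader RNA genes were among the neighbours of the strongest members. SL2 RNAs donate a leader to mRNAs cut from operons, and their genes are annotated as snRNA. An snRNA gene lay beside 6 members (1.80%) and 8 regions without overlap (0.300%), 1.496 points (0.483 to 3.57, Fisher's exact adjusted p = 0.0126). Of the 6, 5 were SL2 genes, which is 27.8% of the 18 in the annotation. A region without overlap lay within 200 bp of 2 of the 18. sls-2.2 had scores of 40.5 and 10.9, sls-2.1 26.4 and 12.3, sls-2.4 24.2 and 12.01, sls-2.8 14.5 and 7.50, and sls-2.14 7.98 and 10.1. Each member overlapped its gene, and the first 3 stood at replicate 1 ranks 4, 34 and 42. The sixth neighbour was F38E11.11 (15.6 and 11.9). SL2 genes form a family of related copies, and how alike their sequences are was not examined. How the authors treated reads that map to several places is not given in the sources used here. The signal of single copies is therefore uncertain. With so few members the snRNA difference was not past the threshold within either rank range (1.94 and 0.575 points) or when overlap of at least 50% of the region was asked for (1.26 points).

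Differences for other small RNA genes were near or short of the threshold. tRNA genes lay beside 12 members (3.59%) and 50 regions without overlap (1.88%, Fisher's exact adjusted p = 0.127), and snoRNA genes beside 6 (1.80%) and 28 (1.05%, Fisher's exact adjusted p = 0.44). The strongest tRNA neighbour, at chromosome V, 5330139 to 5330210, had a member with 29.04 and 10.7. microRNA genes lay beside 6 members (1.80%) and 13 regions without overlap (0.488%, Fisher's exact adjusted p = 0.0467). These 6 members stand for 5 genes, since cel-mir-52 (chromosome IV, 14034008 to 14034107) was next to 2 members that share 1 replicate 2 region, with scores of 37.1 and 11.3 in replicate 1 and 8.34 in replicate 2. With neighbouring regions counted once, the microRNA difference was 1.06 points (Fisher's exact adjusted p = 0.134), and at a central GC of 40 to 50% it was -0.0426 points. It stayed past the threshold under 3 of the 13 alternatives run. The other 4 genes were cel-mir-90 (9.15 and 11.95), cel-mir-2218b (11.7 and 6.70), cel-mir-1021 (8.03 and 6.12) and cel-mir-5595 (8.17 and 5.85). lincRNA, antisense RNA, piRNA and pseudogene neighbours had a Fisher's exact adjusted p of 0.127 to 1, and no rRNA gene lay beside either set.

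**Figure D4:**
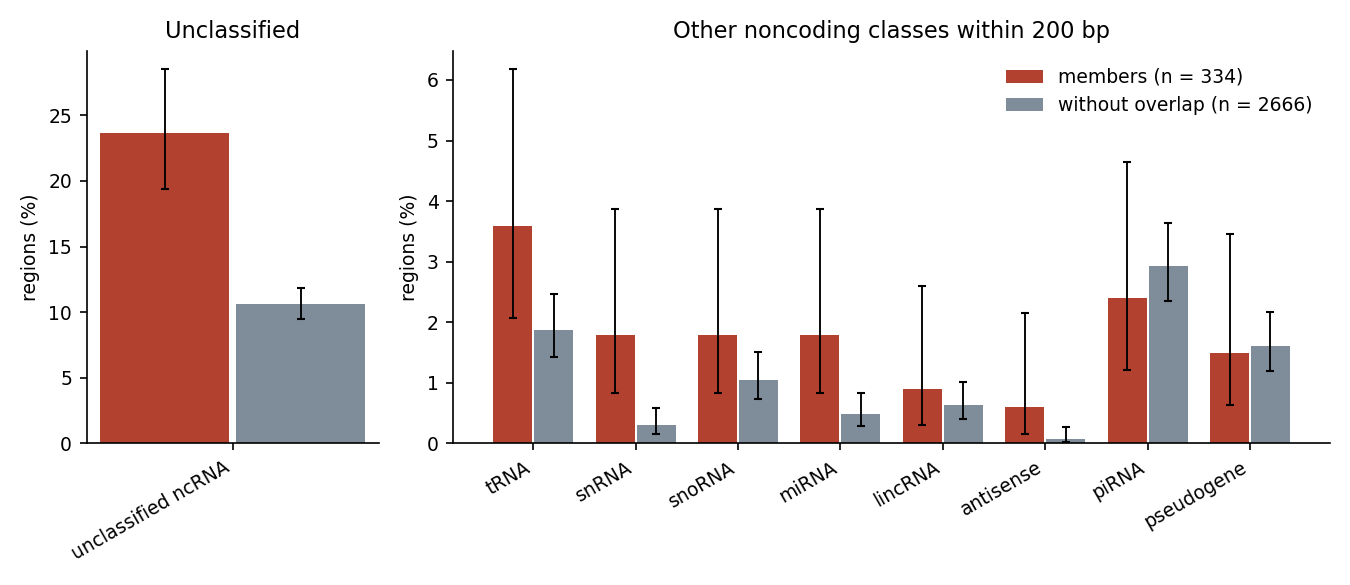
Percentage of regions with a noncoding gene within 200 bp, members (left bar of each pair, n = 334) and regions without overlap (right bar, n = 2666), with 95% Wilson intervals and separate scales for unclassified and other classes. Unclassified genes stand at 23.7% and 10.6%, snRNA genes at 1.80% and 0.300%, and the intervals of most other classes overlap.

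GAGA repeats were the motif with the largest difference between the sets, and strict forkhead cores were also more frequent at members. Both strands of the 50 bp to either side of the centre were searched. GAGAGA occurred at 115 members (34.4%, 29.5 to 39.7), at 332 regions without overlap (12.5%, 11.3 to 13.8) and at 7.05% of the weaker replicate 1 regions. The difference from the regions without overlap was 21.98 points (16.9 to 27.4, Fisher's exact adjusted p = 8.13e-21). The strict forkhead core occurred at 34 members (10.2%, 7.38 to 13.9), at 137 regions without overlap (5.14%, 4.36 to 6.04) and at 3.84% of the weaker regions. This gave 5.04 points (2.095 to 8.83, Fisher's exact adjusted p = 0.00211). Both motifs occurred together at 12 members, and neither at 197. The strict core occurred at 10.4% of the members with the repeat and 10.05% of those without it, a difference that was not tested. Within replicate 1 ranks 1 to 1000 and beyond, the strict core differed by 4.28 and 3.99 points, neither past the threshold.

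**Figure D5:**
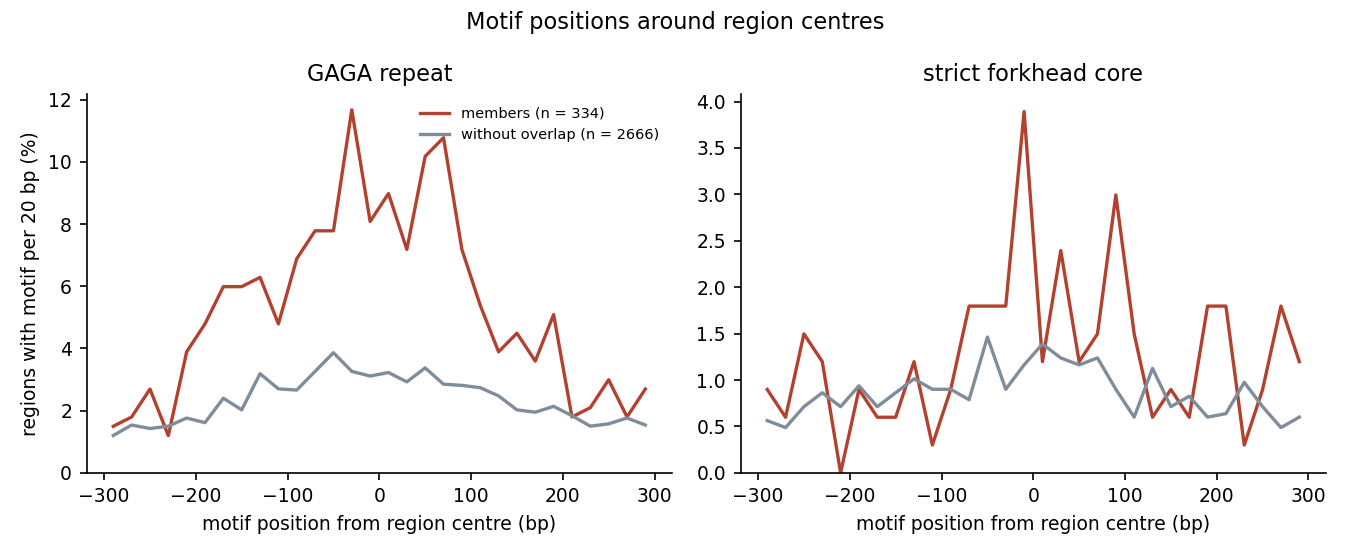
Percentage of regions with a motif start in each 20 bp bin from 300 bp before to 300 bp after the centre, members in red and regions without overlap in grey. GAGA repeats (left) form a broad rise in members, up to 11.7% of members in a bin against 3.26% of the regions without overlap in the same bin. Strict forkhead cores (right) reach 3.89% of members, against 1.16%, in the bin that ends at the centre.

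Base composition moved with membership. The central 101 bases had a median GC of 45.5% in members and 39.6% in the regions without overlap. Among regions with a central GC of 40 to 50%, GAGA repeats occurred at 39.8% of 161 members and 16.3% of 904 regions without overlap (Fisher's exact adjusted p = 1.03e-09). Strict cores there occurred at 9.32% of members and 4.54% of the regions without overlap (Fisher's exact adjusted p = 0.0691). The E-box CANNTG, which helix-loop-helix factors read, occurred at 143 members (42.8%) and 954 regions without overlap (35.8%, Fisher's exact adjusted p = 0.0313). In that GC range its shares were 42.9% of members and 43.6% of the regions without overlap, and the difference stayed past the threshold under 6 of the 13 alternatives run. A looser forkhead core (22.5% of members and 18.3% of the regions without overlap), the GATA core, the homeodomain core TAATTA and the tRNA-promoter B box had a Fisher's exact adjusted p of 0.129 to 1.

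Among the members, GAGA repeats were most frequent in introns. The repeat occurred at 38 of 82 intronic members (46.3%) and 84 of 764 intronic regions without overlap (10.99%), 35.3 points (24.7 to 46.3, added Fisher's exact adjusted p = 1.10e-12). Other members held it in 77 of 252 cases (30.6%), a difference of 15.8 points (added Fisher's exact adjusted p = 0.0157). Promoter members held it in 29.6%, intergenic members in 33.3%, and coding members in 0 of 16. On chromosome X it occurred at 20 of 84 members (23.8%) and on autosomes at 95 of 250 (38%), -14.2 points (-24.2 to -2.53, added Fisher's exact adjusted p = 0.0295). The regions without overlap also had it less often on chromosome X (47 of 530, 8.87%) than on autosomes (285 of 2136, 13.3%). That contrast was not tested. Of the 12 members beside tRNA genes 1 held the repeat, and of the 6 beside snRNA genes none did. Strict cores occurred at 11.4% of intergenic and 6.10% of intronic members, against 6.31% and 5.63% of such regions without overlap. On chromosome X they occurred at 7.14% of members and 7.55% of the regions without overlap, and on autosomes at 11.2% and 4.54%. The intronic and chromosome X differences in strict cores were not tested.

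Ranking by a single replicate gave differences in the same direction for several of these properties. Its strongest regions include members, since 124 of the first 250 replicate 1 regions were members. When the 334 strongest regions of replicate 1 alone were set against the other 2666 of its 3000, the intergenic difference was 28.2 points and the GAGA difference 17.6 points. For the 334 strongest of replicate 2 alone these were 18.2 and 11.4 points. The strict core differed by 6.39 points in replicate 1 and 6.91 points in replicate 2. Because these sets include members, they do not tell whether regions strong in only 1 library share the properties. Nor were the properties shown to be particular to regions that are strong in both libraries.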

How the data were processed

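FKH-2 ChIP-seq was measured in 2 biological replicates. Per the deposited text files, the authors derived each replicate list from alignments and a control file, the same for both. Aligner, caller and versions are not given in the sources used here. The authors' score of each region is on a scale that is not stated, so it ranked regions within a list only. The deposited −log10 q-value was at least 2.999 for every member in replicate 1. Read depth is unknown.

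Centres were annotated with Ensembl release 115 gene models on WBcel235 (ce11) and the RefSeq sequence of that assembly. Each centre had 1 feature, the first that applied of 5′ UTR, coding, 3′ UTR, intron and intergenic. Shares were compared by two-sided Fisher's exact tests (SciPy 1.17.1), with Benjamini-Hochberg adjustment within 6 features, 6 chromosomes, 10 noncoding classes, 7 motifs and 10 tests added after the data were seen. The threshold was 0.05. Overlaps were checked with bedtools 2.31.1 and the tests on simulated data. Intervals cover counting error over regions only.

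The members and gene lists were chosen with earlier results of these data known. Named are the first 15 members by worse rank, up to 4 genes of each list or noncoding class, genes with 3 or more members, fkh-2 and unc-119. Sequences printed avoid UTRs and chromosome I. Further genes were named with their values in view. Alternatives varied list length, overlap, rank range, windows, base composition, position and the replicate used.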

Additional observations from a re-analysis of the deposited data

How the results depend on the processing

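Of 178 alternative values, 130 counted as unchanged. A share counted so if it kept its direction and its side of the threshold. The 178 include 5 numbers of members, which have neither, and 3 of these counted as unchanged for staying near the main number. For intergenic (12.7 to 28.2 points), coding (-21.8 to -11.1) and GAGA shares (11.4 to 28.4), all alternatives run kept direction and side. The number of members was 339 in ce10, 246 with overlap of at least 50% of the region, 153 for the 1000 highest and 534 for the 5000 highest. For all shares below, values are member shares minus those without overlap, in points. In these cases the cause was not tested.

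The promoter difference lost the threshold for the 1000 highest (4.99), within ranks 1 to 1000 (7.08) and beyond rank 1000 (7.57), at a GC of 40 to 50% (5.54) and among intergenic regions (5.04). Strict forkhead cores lost it within both rank ranges (4.28 and 3.99), at that GC (4.78) and in promoters (4.998). snRNA neighbours lost it with overlap of at least 50% (1.26) and within both rank ranges (1.94 and 0.575). Unclassified noncoding neighbours lost it at that GC (8.13).

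tRNA neighbours passed for the 5000 highest (2.103) and for replicate 2 regions (2.83), and turned to -0.139 within ranks 1 to 1000. With a single replicate they ran from 0.370 to 2.47, the second of which passed. snoRNA neighbours passed for the 5000 highest (1.11) and turned for the 1000 highest (-0.228) and ranks 1 to 1000 (-0.133). With a single replicate they ran from -0.451 to 1.42. Introns passed with overlap of at least 50% (-7.69) and turned beyond rank 1000 (1.17). With a single replicate they ran from -7.48 to -6.88, and both passed (Fisher's exact adjusted p = 0.00630 and 0.0129). Chromosome X ran from 0.888 to 7.63 and passed with replicate 1 alone (Fisher's exact adjusted p = 0.00914).

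Alternatives for microRNA, E-box, 3′ UTR and unclassified noncoding shares, GC, position and chromosome were chosen after seeing the data. microRNA neighbours turned to -0.0426 at a GC of 40 to 50%, and to -0.0389 and -0.338 with a single replicate. They lost the threshold for the 1000 highest (0.717), with overlap of at least 50% (0.639), for replicate 2 regions (0.679), within both rank ranges (0.886 and 2.04), with neighbouring regions counted once (1.06) and among intergenic regions (1.05). E-boxes turned to -0.727 at that GC. They lost it for the 1000 highest (2.51), within both rank ranges (4.41 and 9.45), without replicate 2 (1.64), without chromosome X (4.65) and among intergenic regions (6.66). 3′ UTRs lost the threshold at that GC (-0.706), beyond rank 1000 (-1.56) and without replicate 1 (-1.80). A set from a single replicate takes as many of its strongest regions as there are members, and it includes members. No paired analysis was possible because the series has 1 group of 2 replicates.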

Other observations

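The microRNA gene cel-mir-52 had 3 members close by on chromosome IV. Beside the 2 members next to it, a member at 14032849 to 14033138 had scores of 8.11 and 14.5, ranks 2438 and 53, and a GAGA repeat. The first of the neighbouring 2, at 14033577 to 14033866, held a strict forkhead core, and the second, at 14033785 to 14034074, a GAGA repeat. The nearest protein-coding start, of Y37A1B.7, was 9850 to 10786 bp away. All 3 overlap unclassified noncoding genes.

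The ranks of some members differed widely between the replicates. The homeobox gene ceh-38 had a member of ranks 2314 and 16 in its 5′ UTR. A member near the nuclear hormone receptor gene nhr-88, 2614 bp upstream, had ranks 2852 and 148. A member near F54F12.1 had ranks 46 and 2674. In zfp-1, a further intronic member assigned to F54F2.6 had the best ranks of the 4 in that gene, 118 and 60, with scores of 18.1 and 14.2. These genes were chosen after their values were seen.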
